A study of Mus musculus with 4 samples.

Results

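The mitochondrial carrier family, Slc25a, was followed across the 4 kidney arrays of the study. Its members were taken by name: every gene with a probe set that lists a single symbol beginning with Slc25a and a digit. This gave 44 genes read by 93 probe sets, of 18193 genes and 45037 probe sets on the arrays. The rule itself uses the symbol and no measured value, although the family was picked with earlier results of these arrays known. A probe set is a group of short probes for one transcript, and the genes were called measured where their signal reached a floor of 5.72 on the log2 scale. Of the 44 carriers, 39 were measured, and all 39 were over the floor on all 4 arrays. This was 88.6% of the carriers, against 75.9% of all genes. The carriers below the floor on all 4 arrays were Slc25a2, Slc25a18, Slc25a31, Slc25a41 and Slc25a54.

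The tissue was whole kidney of male C57Bl/6 mice, and the label Tet2KO stands for loss of Tet2, which acts on methylated DNA by oxidation. The 4 groups were kidneys labelled Tet2KO after ischemia-reperfusion, kidneys labelled Tet2KO after sham surgery, wild-type (WT) kidneys after ischemia-reperfusion and WT kidneys after sham surgery. Ischemia lasted 60 min and reperfusion 24 h. RNA of 3 mice was pooled for the single array of a group, so nothing is known of single mice, no comparison has a replicate check and no test was made. Neither the age of the mice nor the design of the knockout allele is given in the labels. The signal of Tet2 was not clearly lower under the knockout label after sham surgery, where the log2 ratios to WT were -0.09 and 0.41 by its probe sets. After ischemia-reperfusion they were -0.41 and -0.70. Its log2 signals were 8.74 in knockout-labelled ischemia-reperfusion, 9.87 in knockout-labelled sham, 9.16 in WT ischemia-reperfusion and 9.96 in WT sham kidneys by one probe set. The other probe set gave 8.60 and 10.25 in knockout-labelled ischemia-reperfusion and sham kidneys, against 9.30 and 9.84 in the matching WT kidneys. Whether these probe sets lie in the deleted part is not known here, and the libraries are called knockout-labelled throughout.

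The inner membrane of a mitochondrion lets few solutes through, and the proteins of the Slc25 family carry nucleotides, phosphate, carboxylates, amino acids, acylcarnitines and cofactors across it. Other proteins serve some solutes, such as the pyruvate carrier and the calcium uniporter. Tubule cells of the kidney, above all those of the proximal tubule, are rich in mitochondria and burn fatty acids, and they are the cells most damaged by ischemia.

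Tubule markers of the kidney were present on every array. The sums for uninjured tubule segments were lower after ischemia-reperfusion in both genotypes. The carriers' median log2 ratio was -0.19 in the knockout-labelled and 0.02 in the WT pair. The part of the tubule markers in the carriers' results was not tested. All 11 proximal tubule markers were over the floor on all 4 arrays, with a summed linear signal of 36390 in knockout-labelled ischemia-reperfusion and 94950 in knockout-labelled sham kidneys, against 70425 and 94176 in the matching WT kidneys. The 7 markers of the loop of Henle and distal tubule summed to 23368 and 63048 in knockout-labelled ischemia-reperfusion and sham kidneys, against 46901 and 67551 in the matching WT kidneys. Single markers did not all follow these sums. At 2-fold or more, 8 proximal tubule markers were lower in the knockout-labelled pair. In the WT pair 1 was lower and 1, Slc13a1, was higher. Of the loop and distal markers, 6 were lower in the knockout-labelled and 2 in the WT pair, with Umod in neither count. Over all genes, 6.89% were lower in the knockout-labelled pair, and 2.18% lower and 2.06% higher in the WT pair. In whole-kidney RNA, fewer cells of a type and less RNA per cell cannot be told apart. The 7 markers of injured tubules summed to 54141 in knockout-labelled ischemia-reperfusion and 2688 in knockout-labelled sham kidneys, against 31844 and 4137 in the matching WT kidneys. Both sums for uninjured tubule segments were lowest, and those of injured tubules highest, on the knockout-labelled ischemia-reperfusion array.

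Markers of other cells also differed. The 4 neutrophil markers on the array summed to 2123 and 200.5 in knockout-labelled ischemia-reperfusion and sham kidneys, against 369.3 and 219.5 in the matching WT kidneys. S100a8 and S100a9 made up most of the highest sum, with log2 signals of 10.03 and 9.92 on that array. Csf3r had log2 ratios of 0.30 in the knockout-labelled and 0.04 in the WT pair, and Cxcr2 was below the floor on all 4 arrays. For fat, 6 of 7 listed markers were on the array. Their sum was 1347 in knockout-labelled ischemia-reperfusion and 186.3 in knockout-labelled sham kidneys, against 196.1 in WT ischemia-reperfusion and 2844 in WT sham kidneys, with 4, 0, 0 and 5 of the 6 over the floor. Fat markers were over the floor on one array of each genotype, ischemia-reperfusion under the knockout label and sham in WT. The 7 skeletal muscle markers summed to between 268.2 and 282.1 on the 4 arrays, with Myh4, Myh2, Tnnt3 and Actn3 below the floor on each. The 6 macrophage markers summed to 3094 and 3612 in knockout-labelled ischemia-reperfusion and sham kidneys, against 2056 and 3680 in the matching WT kidneys. These sums hide opposite directions. Cd68 and Cd14 were higher by 2-fold or more after ischemia-reperfusion in both pairs, and Lyz2 and Csf1r were lower by 2-fold or more in both. C1qa was lower by that fold in WT alone, and Adgre1 did not reach it. The 6 endothelial markers summed to 1702 and 2138, against 661.3 and 2349 in the matching WT kidneys. The part of these markers in the results was not tested either.

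The promoters of 4 of the 10 carriers that differed by 2-fold or more in any comparison are shown. Slc25a24 and Slc25a25 are calcium-regulated carriers of ATP-Mg and phosphate. They were higher by 2-fold or more after ischemia-reperfusion, Slc25a24 in both genotypes and Slc25a25 in WT. Slc25a13 and Slc25a11 are carriers of the malate-aspartate shuttle that were lower after ischemia-reperfusion in the knockout-labelled pair. Each window runs from 250 bases before to 50 bases after a RefSeq transcript start in build GRCm38.p6, written 5′ to 3′ on the strand of the gene. Motif letters found there are in capitals. The Slc25a24 window, chr3:109122899-109123198 on the plus strand, held no motif that was searched. The Slc25a13 window, chr6:6217124-6217423 on the minus strand, has TGANTCA starting 130 bases and CACGTG starting 125 bases before the start, and the 2 matches overlap. The Slc25a11 window, chr11:70646990-70647289 on the minus strand, has TGANTCA 144 bases before the start. No other carrier had TGANTCA in a window. Of the other carriers lower by 2-fold in the knockout-labelled pair, Slc25a16 has a window that held no motif that was searched, and Slc25a35 has no window. Slc25a25 has 3 windows, and the one at chr2:32424017-32424316 on the minus strand has TGACGTCA 150 bases before the start. Of its other windows, the one at chr2:32451421-32451720 holds CCGGAAG once and TGACNNNGC at 2 places, and the remaining one holds none of the motifs.
Slc25a24: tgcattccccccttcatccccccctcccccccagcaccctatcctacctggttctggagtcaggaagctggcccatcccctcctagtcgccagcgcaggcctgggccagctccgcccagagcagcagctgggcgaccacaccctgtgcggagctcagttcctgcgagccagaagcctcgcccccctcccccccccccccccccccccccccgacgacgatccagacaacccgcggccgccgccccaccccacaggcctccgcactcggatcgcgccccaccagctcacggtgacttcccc
Slc25a13: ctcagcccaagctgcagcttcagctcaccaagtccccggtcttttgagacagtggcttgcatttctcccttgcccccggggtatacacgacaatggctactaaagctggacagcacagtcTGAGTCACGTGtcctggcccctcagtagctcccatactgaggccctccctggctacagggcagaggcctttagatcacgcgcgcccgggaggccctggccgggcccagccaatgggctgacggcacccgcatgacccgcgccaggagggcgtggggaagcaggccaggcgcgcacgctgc
Slc25a11: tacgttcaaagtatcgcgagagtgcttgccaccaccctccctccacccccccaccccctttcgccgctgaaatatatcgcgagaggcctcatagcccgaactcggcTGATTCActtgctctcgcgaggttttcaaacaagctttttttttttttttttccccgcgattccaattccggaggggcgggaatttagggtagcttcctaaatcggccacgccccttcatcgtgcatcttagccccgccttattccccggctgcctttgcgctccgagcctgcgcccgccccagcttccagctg
Slc25a25: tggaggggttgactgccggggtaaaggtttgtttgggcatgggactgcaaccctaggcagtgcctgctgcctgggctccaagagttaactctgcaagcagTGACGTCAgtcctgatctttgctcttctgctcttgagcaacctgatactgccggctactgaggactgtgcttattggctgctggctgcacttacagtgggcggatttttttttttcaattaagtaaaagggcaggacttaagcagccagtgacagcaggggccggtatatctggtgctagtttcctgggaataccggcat

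RefSeq windows were matched by symbol for 34 of the 44 carriers, 43 windows in all. They were searched on both strands for 7 motifs. CCGGAAG, bound by ETS factors, was in 16.3% of the carriers' windows, against 11.6% of all 21262 windows of protein-coding genes. TGACGTCA, bound by CREB and ATF factors, was in 4.65% against 2.23%. CACGTG, the E-box, was in 18.6% against 7.84%. TGANTCA, the AP-1 site, was in 4.65% against 6.99%. TGACNNNGC, the core of the antioxidant response element, was in 27.9% against 13.0%. A TGANTCA with C for N and GC after it also holds TGACNNNGC, so these counts are not independent. GCGCATGC, the core of the NRF1 site, was in 4.65% against 3.51%, and TCAAGGTCA, bound by estrogen-related receptors, was in 0 carrier windows, against 0.334% of all windows. The carriers' windows had a median GC content of 59.7%, against 56.3% for all windows. These matches describe letters in a window and are not sites of binding.

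After ischemia-reperfusion, more carriers were lower than higher at 1.5-fold or more in the knockout-labelled kidneys, and more were higher than lower at that fold in the WT kidneys. In the knockout-labelled pair, 4 of 39 measured carriers were lower by 2-fold or more (10.3%), where 6.89% of all genes were, and 1 carrier was higher (2.56%), where 6.06% of all genes were. At 1.5-fold or more, 10 carriers were lower (25.6%), where 14.5% of all genes were, and 5 were higher (12.8%), where 14.6% were. The median log2 ratio of the carriers was -0.19, with 25 of 39 below 0, beside -0.02 for all genes, with 51.7% of those below 0. The carriers lower at 2-fold were Slc25a11, Slc25a13, Slc25a16 and Slc25a35, and the carrier higher was Slc25a24.

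In the WT pair, 3 carriers were higher by 2-fold or more (7.69%), where 2.06% of all genes were, and 0 were lower, where 2.18% were. At 1.5-fold or more, 6 carriers were higher (15.4%), where 5.98% of all genes were, and 1 was lower (2.56%), where 6.29% were. The carriers higher at 2-fold were Slc25a20, Slc25a24 and Slc25a25, and Slc25a35 was the one lower at 1.5-fold. The median log2 ratio of the carriers was 0.02, with 19 of 39 below 0. That of all genes was also 0.02, with 47.3% below 0. The spread between probe sets of the same gene, as an SD of log2 ratios, was 0.39 over all genes in the knockout-labelled pair and 0.24 in the WT pair. It is the only error these arrays give, and it leaves out differences between mice.

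**Figure D1:**
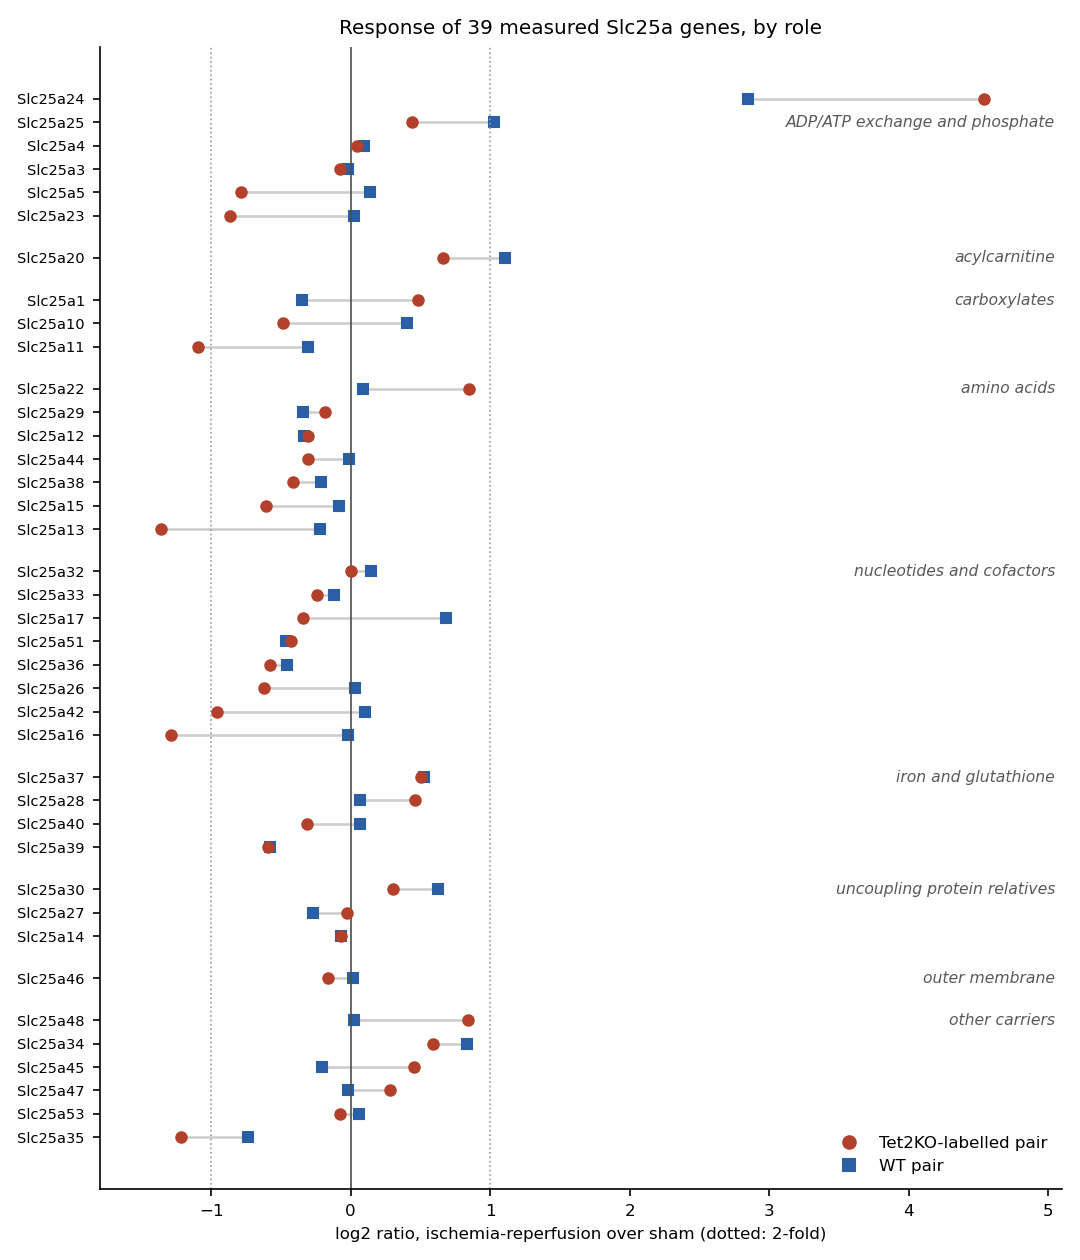
Log2 ratio of ischemia-reperfusion over sham (x axis) for the 39 measured carriers, grouped by what they carry. Red circles are the knockout-labelled pair and blue squares the WT pair, with 1 array per group and dotted lines at 2-fold. Slc25a24 stands at 4.54 and 2.85, and the 4 circles left of the lower dotted line are Slc25a11, Slc25a13, Slc25a16 and Slc25a35.

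Among the carriers of adenine nucleotides and phosphate, Slc25a24, a carrier that exchanges ATP-Mg for phosphate when calcium rises and so sets the adenine nucleotide pool of the matrix, had the largest response of the 39 carriers in each genotype. Its log2 signals were 11.60 in knockout-labelled ischemia-reperfusion and 7.06 in knockout-labelled sham kidneys, and 10.22 in WT ischemia-reperfusion and 7.38 in WT sham kidneys. Both ischemia-reperfusion arrays lay above both sham arrays. Ischemia-reperfusion was 23.3-fold higher than sham in the knockout-labelled pair and 7.19-fold higher in the WT pair, so the knockout-labelled response was the larger by 3.24-fold. A second probe set was below the floor in both sham groups and gave at least 11.3-fold in the knockout-labelled pair and at least 4.70-fold in the WT pair.

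The related Slc25a25 had log2 signals of 9.85 and 9.41 in knockout-labelled ischemia-reperfusion and sham kidneys, against 10.74 and 9.71 in the matching WT kidneys. It was 2.03-fold higher after ischemia-reperfusion in WT, a value that came under 2-fold with a pseudocount or quantile normalization, and had a 1.36-fold ratio in the knockout-labelled pair. Its other probe sets did not move alike: one had log2 ratios of 0.52 in the knockout-labelled and 1.31 in the WT pair, the other -0.05 and -0.23. Slc25a23, another gene for an ATP-Mg and phosphate carrier, had log2 signals of 7.89 and 8.75 in knockout-labelled ischemia-reperfusion and sham kidneys, against 8.65 and 8.63 in the matching WT kidneys. Its lowest array was knockout-labelled ischemia-reperfusion, and it stood between 8.63 and 8.75 on the others, so the 3 genes of this transport showed 3 different patterns. Slc25a41, a further gene of this kind, was below the floor.

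The ADP/ATP carriers, which exchange matrix ATP for cytosolic ADP, also differed from each other. Slc25a5, the ADP/ATP carrier found in many tissues, had log2 signals of 13.16 in knockout-labelled ischemia-reperfusion and 13.95 in knockout-labelled sham kidneys, against 14.05 and 13.91 in the matching WT kidneys. All 8 of its probe sets gave a log2 ratio between -1.11 and -0.60 in the knockout-labelled pair and between 0.03 and 0.19 in the WT pair. Most of them are _x_at sets, whose probes can bind other transcripts. Those of other kinds gave -0.79 and -0.83 in the knockout-labelled pair and 0.14 and 0.19 in the WT pair. Slc25a4, the form of heart and muscle, had log2 ratios of 0.04 and 0.09, and Slc25a3, the phosphate carrier that feeds ATP synthase, had -0.08 and -0.02 in the knockout-labelled and WT pairs. Slc25a31, the form of the testis, was below the floor. By the probe sets used, the signals of Slc25a3 and Slc25a4 spanned no more than 0.16 over the 4 arrays, while that of Slc25a5 spanned 0.89. A second probe set of Slc25a3 had a log2 ratio of 0.46 in the knockout-labelled pair.

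The acylcarnitine carrier Slc25a20, which brings fatty acids bound to carnitine into the matrix for oxidation, had log2 signals of 11.31 and 10.65 in knockout-labelled ischemia-reperfusion and sham kidneys, against 11.58 and 10.47 in the matching WT kidneys. Both ischemia-reperfusion arrays lay above both sham arrays, by 1.58-fold in the knockout-labelled pair and 2.16-fold in the WT pair. Its second probe set gave log2 ratios of 0.22 and 1.03 in these pairs. Of the enzymes that work beside it, Cpt2, which takes the carnitine off again, was 2.03-fold higher in WT with a log2 ratio of 0.15 in the knockout-labelled pair, and Cpt1a, which puts it on, had 0.35 in the knockout-labelled and 0.08 in the WT pair. Brown fat also uses Slc25a20 and Cpt2. The fat markers were higher in knockout-labelled ischemia-reperfusion than in knockout-labelled sham kidneys and lower in WT ischemia-reperfusion than in WT sham kidneys. The part of fat in the values of these genes was not tested.

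The 3 carboxylate carriers each moved differently. Slc25a11, which exchanges 2-oxoglutarate for malate, had log2 signals of 9.93 in knockout-labelled ischemia-reperfusion and 11.02 in knockout-labelled sham kidneys, against 10.79 and 11.10 in the matching WT kidneys. It was 2.14-fold lower in the knockout-labelled pair, with a log2 ratio of -0.31 in the WT pair. Slc25a1, the citrate carrier that supplies cytosolic acetyl groups, had log2 signals of 9.94 and 9.46 in knockout-labelled ischemia-reperfusion and sham kidneys, against 8.90 and 9.25 in the matching WT kidneys. Its ischemia-reperfusion array was the highest under the knockout label and the lowest in WT, a 2.05-fold difference between those arrays. Acly, the enzyme that splits exported citrate, had a log2 ratio of 0.61 for knockout-labelled over WT between the same arrays. Slc25a10, the dicarboxylate carrier for malate and succinate, went the other way, with log2 signals of 11.44 and 11.93 in knockout-labelled ischemia-reperfusion and sham kidneys, against 12.15 and 11.75 in the matching WT kidneys. The second probe set of Slc25a10 had log2 ratios of -0.50 and -0.67 in the knockout-labelled and WT pairs, so the higher WT value was seen by one probe set.

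Of the 7 measured amino acid carriers, 6 had ratios below 0 in each genotype, with medians of -0.31 in the knockout-labelled and -0.21 in the WT pair. Over all genes, 51.7% and 47.3% were below 0 in these pairs. Several of these ratios were smaller than the SD between probe sets. They were those of Slc25a12, Slc25a29 and Slc25a44 in the knockout-labelled pair, and of Slc25a13, Slc25a15, Slc25a38 and Slc25a44 in the WT pair. Slc25a13, the aspartate-glutamate carrier named citrin, had log2 signals of 9.71 in knockout-labelled ischemia-reperfusion and 11.06 in knockout-labelled sham kidneys, against 10.76 and 10.97 in the matching WT kidneys. The knockout-labelled ischemia-reperfusion array was the lowest and the other 3 lay close together. It was 2.56-fold lower in the knockout-labelled pair, with a log2 ratio of -0.22 in the WT pair. Slc25a12, the other aspartate-glutamate carrier, had log2 ratios of -0.31 and -0.34 in the knockout-labelled and WT pairs by the probe set used. Its other probe sets gave -1.16 and 0.20 in the knockout-labelled pair, so they disagreed in sign.

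Slc25a11 and Slc25a13 carry the malate, oxoglutarate, aspartate and glutamate of the malate-aspartate shuttle, which moves reducing equivalents from the cytosol into the matrix. Of the shuttle's enzymes, the cytosolic malate dehydrogenase Mdh1 had log2 signals of 13.10 and 14.09 in knockout-labelled ischemia-reperfusion and sham kidneys, against 13.88 and 14.02 in the matching WT kidneys. Like Slc25a11 and Slc25a13 it was lowest on the knockout-labelled ischemia-reperfusion array, with a log2 ratio of -0.99 in that pair. The mitochondrial Mdh2 had a log2 ratio of -0.03 there, and the aspartate aminotransferases Got1 and Got2 had 0.41 each. In the WT pair these 4 enzymes had log2 ratios between -0.14 and 0.27.

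Slc25a22, a glutamate carrier, was the amino acid carrier with a ratio above 0, with log2 ratios of 0.85 in the knockout-labelled and 0.09 in the WT pair. The related Slc25a18 was below the floor. Glud1, which splits glutamate in the matrix, was 2.15-fold higher in WT, with a log2 ratio of 0.70 in the knockout-labelled pair. The ornithine carrier Slc25a15 had log2 ratios of -0.61 in the knockout-labelled and -0.08 in the WT pair, and Slc25a2, a second ornithine carrier in humans, was below the floor. Arg2, the mitochondrial arginase that makes ornithine, was higher after ischemia-reperfusion, with log2 ratios of 2.07 in the knockout-labelled and 3.59 in the WT pair. A second probe set of Slc25a15 had log2 ratios of -0.79 and -0.45 in these pairs. The enzyme and the carrier thus differed in direction in the knockout-labelled pair. In the WT pair the carrier's ratio by the probe set used was smaller than the SD between probe sets. Slc25a29, a carrier of basic amino acids, Slc25a38, the glycine carrier of heme synthesis, and Slc25a44, a carrier of branched-chain amino acids, had log2 ratios between -0.42 and -0.19 in the knockout-labelled pair and between -0.34 and -0.01 in the WT pair.

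Of the 8 measured carriers of nucleotides and cofactors, 7 had ratios below 0 in the knockout-labelled pair, with a median log2 ratio of -0.50. In the WT pair 4 were below 0 and the median was 0.01. Over all genes, 51.7% and 47.3% were below 0 in these pairs. In the knockout-labelled pair the ratios of Slc25a17 and Slc25a33 were smaller than the SD between probe sets. Within this group, by the probe sets used, the carriers linked to coenzyme A had the largest differences between the genotypes' responses. Slc25a16, an inner membrane carrier linked to coenzyme A, had log2 signals of 9.84 in knockout-labelled ischemia-reperfusion and 11.13 in knockout-labelled sham kidneys, against 11.04 and 11.06 in the matching WT kidneys. It was 2.44-fold lower in the knockout-labelled pair, while the WT arrays differed by 0.02. Slc25a42, a carrier of coenzyme A, had log2 signals of 8.65 and 9.61 in knockout-labelled ischemia-reperfusion and sham kidneys, against 9.41 and 9.30 in the matching WT kidneys. Its responses differed by 2.08-fold, lower in the knockout-labelled pair, but a second probe set near the floor had log2 ratios of 0.20 and 0.14 in the knockout-labelled and WT pairs.

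Slc25a17 sits in the peroxisome membrane, where it carries coenzyme A and other nucleotide cofactors. It had log2 signals of 9.61 in knockout-labelled ischemia-reperfusion and 9.95 in knockout-labelled sham kidneys, against 10.86 and 10.17 in the matching WT kidneys. The WT ischemia-reperfusion array was the highest of the 4, and knockout-labelled ischemia-reperfusion was 2.37-fold lower than it. Its second probe set was at or near the floor on all arrays. Slc25a26, which brings S-adenosylmethionine into the matrix, had log2 ratios of -0.62 in the knockout-labelled and 0.03 in the WT pair. Slc25a51, a carrier of NAD, had -0.42 and -0.46 in the same pairs.

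The remaining cofactor carriers moved little, apart from Slc25a36, whose probe sets were all below 0 but differed in size. Slc25a36, a carrier of pyrimidine nucleotides, had log2 ratios of -0.58 in the knockout-labelled and -0.46 in the WT pair by the probe set used. By the remaining probe sets the ratios were -1.41 and -1.39 in the knockout-labelled pair, so the value used was the smallest of the 3. The related Slc25a33 had -0.24 and -0.12, and Slc25a32, a carrier of folate, had 0.00 and 0.15 in the knockout-labelled and WT pairs. Of the folate enzymes of the matrix, Shmt2, which takes a carbon from serine, was 2.17-fold lower in the knockout-labelled pair. Mthfd1l, which releases formate, was 3.60-fold higher there, while the folate carrier had the same signal on both arrays of that pair.

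The iron carriers were above 0 in both genotypes. Slc25a37 and Slc25a28, the mitoferrins that bring iron into the matrix, had log2 ratios of 0.50 and 0.46 in the knockout-labelled pair and of 0.53 and 0.07 in the WT pair. Alas1, the first enzyme of heme synthesis outside red cells, was 3.69-fold higher in the knockout-labelled pair, and Nfs1, the enzyme that supplies sulfur to iron-sulfur clusters, was 2.40-fold lower there. Slc25a37 is also the mitoferrin of red cell precursors. Of the 5 red cell markers on the array, Hba-a1, Ermap and Rhag were below the floor on all arrays. Epb42 was just over the floor in WT ischemia-reperfusion (5.88) and WT sham kidneys (5.76), and below it on both knockout-labelled arrays. Alas2, the red cell form of the heme enzyme, was between 6.57 and 7.58. It was 2.02-fold higher in knockout-labelled than in WT ischemia-reperfusion kidneys, where Epb42 had a log2 ratio of -0.15 against the floor. Slc25a39, which brings glutathione into the matrix, had log2 ratios of -0.60 in the knockout-labelled and -0.58 in the WT pair, and its relative Slc25a40 had -0.31 and 0.07. The other 4 probe sets of Slc25a39 lay between -0.49 and -0.30 in the knockout-labelled and between -0.18 and 0.13 in the WT pair.

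Slc25a35, a carrier with no settled substrate, had log2 signals of 7.30 in knockout-labelled ischemia-reperfusion and 8.51 in knockout-labelled sham kidneys, against 7.93 and 8.66 in the matching WT kidneys. Both ischemia-reperfusion arrays lay below both sham arrays, by 2.32-fold in the knockout-labelled pair and 1.66-fold in the WT pair. Slc25a34, a related orphan carrier, had log2 ratios of 0.59 and 0.83 in these pairs, so these genes moved in opposite directions. Slc25a48, linked to choline transport, had log2 ratios of 0.84 in the knockout-labelled and 0.03 in the WT pair, with probe sets of both signs in each pair. Slc25a45 had 0.46 and -0.20. Slc25a47, known from liver, and Slc25a53 lay between -0.08 and 0.28 in both pairs. The uncoupling protein relatives Slc25a14, Slc25a27 and Slc25a30 had log2 ratios of -0.07, -0.02 and 0.30 in the knockout-labelled pair and of -0.07, -0.27 and 0.63 in the WT pair. Slc25a30 is the one named for its expression in kidney mitochondria. Slc25a46, a family member of the outer membrane that acts in mitochondrial shape, had -0.16 and 0.02.

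**Figure D2:**
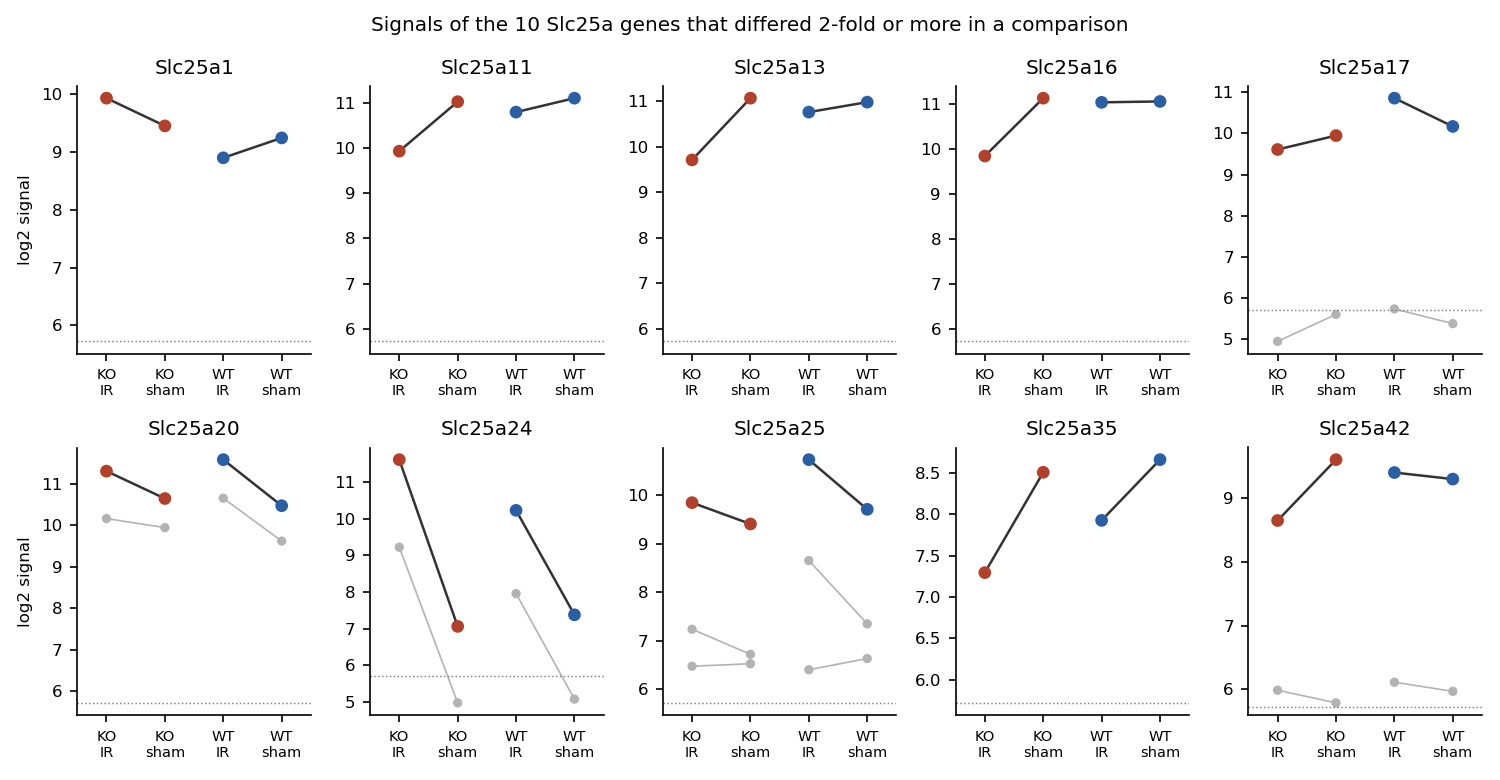
Log2 signals of the 10 carriers that differed by 2-fold or more in any comparison, 1 panel per gene and 1 point per array (KO, knockout-labelled; IR, ischemia-reperfusion). Grey points are other probe sets of the gene and the dotted line is the floor of 5.72. Knockout-labelled ischemia-reperfusion stands apart from the other 3 arrays for Slc25a13 and Slc25a16, and both ischemia-reperfusion arrays lie above both sham arrays for Slc25a24 and Slc25a20.

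The carriers' signals were close in the sham kidneys of the genotypes. Between knockout-labelled and WT sham kidneys 0 of 39 carriers differed by 2-fold, where 0.186% of all genes were higher and 0.846% lower. At 1.5-fold also 0 carriers differed, where 1.02% of all genes were higher and 2.43% lower. The log2 ratios lay between -0.32 for Slc25a47 and 0.31 for Slc25a42, with a median of 0.03. The 93 probe sets of the carriers correlated across these sham arrays with r = 0.998, a correlation across probe sets that are not independent replicates. Cell type markers were not all as close. Of the 7 injured tubule markers, 2 were lower by 2-fold or more under the knockout label, Havcr1 by 5.72-fold and Krt18 by 4.54-fold. Of 5 measured fat markers, 4 were lower by that fold. The same sham arrays enter the responses.

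After ischemia-reperfusion the genotypes differed more. Knockout-labelled kidneys were 2-fold or more higher than WT kidneys for 2 carriers (5.13%), Slc25a1 and Slc25a24, where 3.68% of all genes were higher. They were 2-fold or more lower for 3 carriers (7.69%), Slc25a13, Slc25a16 and Slc25a17, where 3.99% of all genes were lower. At 1.5-fold or more, 5 carriers were higher (12.8%), where 10.6% of all genes were, and 11 were lower (28.2%), where 10.5% were. The median log2 ratio of the carriers was -0.12, with 28 of 39 below 0 (71.8%), beside -0.01 for all genes, with 51.1% below 0. Slc25a24 was 2.60-fold higher, Slc25a13 2.07-fold lower and Slc25a16 2.29-fold lower.

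The difference between the responses, knockout-labelled minus WT, uses all 4 arrays and so shares them with the comparisons above. It was 2-fold or more higher for 1 carrier (2.56%), Slc25a24, where 4.75% of all genes were, and lower for 4 carriers (10.3%), Slc25a13, Slc25a16, Slc25a17 and Slc25a42, where 4.77% were. At 1.5-fold or more, 5 carriers were higher (12.8%), where 11.1% of all genes were, and 9 were lower (23.1%), where 12.5% were. The median log2 difference was -0.15 for the carriers and -0.03 for all genes. It was 1.70 for Slc25a24, -1.14 for Slc25a13 and -1.27 for Slc25a16.

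The carriers' directions and sizes of response stood in both genotypes much as those of all genes did. Of 39, 11 were above 0 in both pairs and 16 below 0 in both, 3 were above 0 in the knockout-labelled and below 0 in the WT pair, and 9 the reverse. The sign was the same in both pairs for 69.2% of the carriers and 66.6% of all genes. The response was larger in size in the knockout-labelled pair for 26 of 39 carriers (66.7%) and for 68.6% of all genes. Some of these signs rest on ratios smaller than the SD between probe sets. Across the 39 carriers the responses correlated with r = 0.78 and rho = 0.44, and without Slc25a24 with r = 0.47 and rho = 0.39, so the Pearson value rests in part on that gene. Across 13323 genes r was 0.55 and rho 0.50. These correlations run across genes, which are not independent replicates, within the same 4 arrays.

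**Figure D3:**
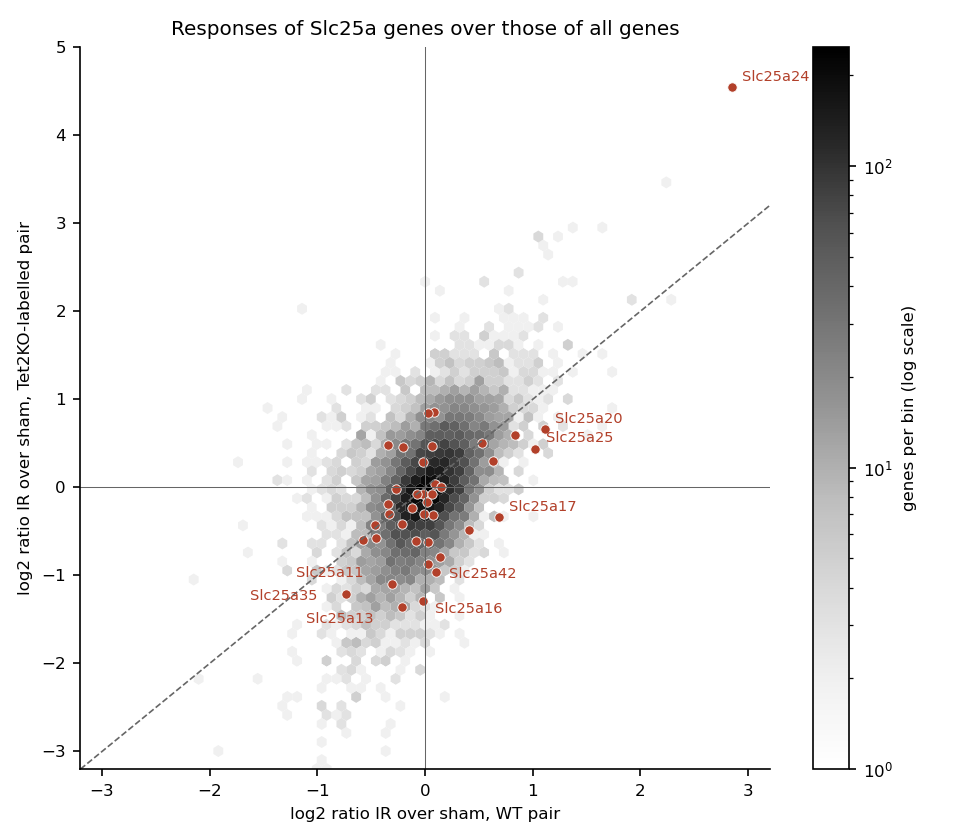
Log2 ratio of ischemia-reperfusion over sham in the knockout-labelled pair (y axis) against the WT pair (x axis), with the carriers as red points over the density of all genes in grey bins on a log scale. The dashed line marks equal responses, 63 genes lie outside the axes, and Slc25a24 at 4.54 and 2.85 stands apart from the other carriers.

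Of the 10 carriers that differed by 2-fold in any comparison, 5 were read by 1 probe set alone: Slc25a1, Slc25a11, Slc25a13, Slc25a16 and Slc25a35. Among carriers with 2 or more measured probe sets, all of them gave the same sign for 12 of 20 genes in the knockout-labelled pair and for 14 of 21 in the WT pair. The SD between probe sets of a carrier was 0.30 in the knockout-labelled and 0.27 in the WT pair.

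**Figure D4:**
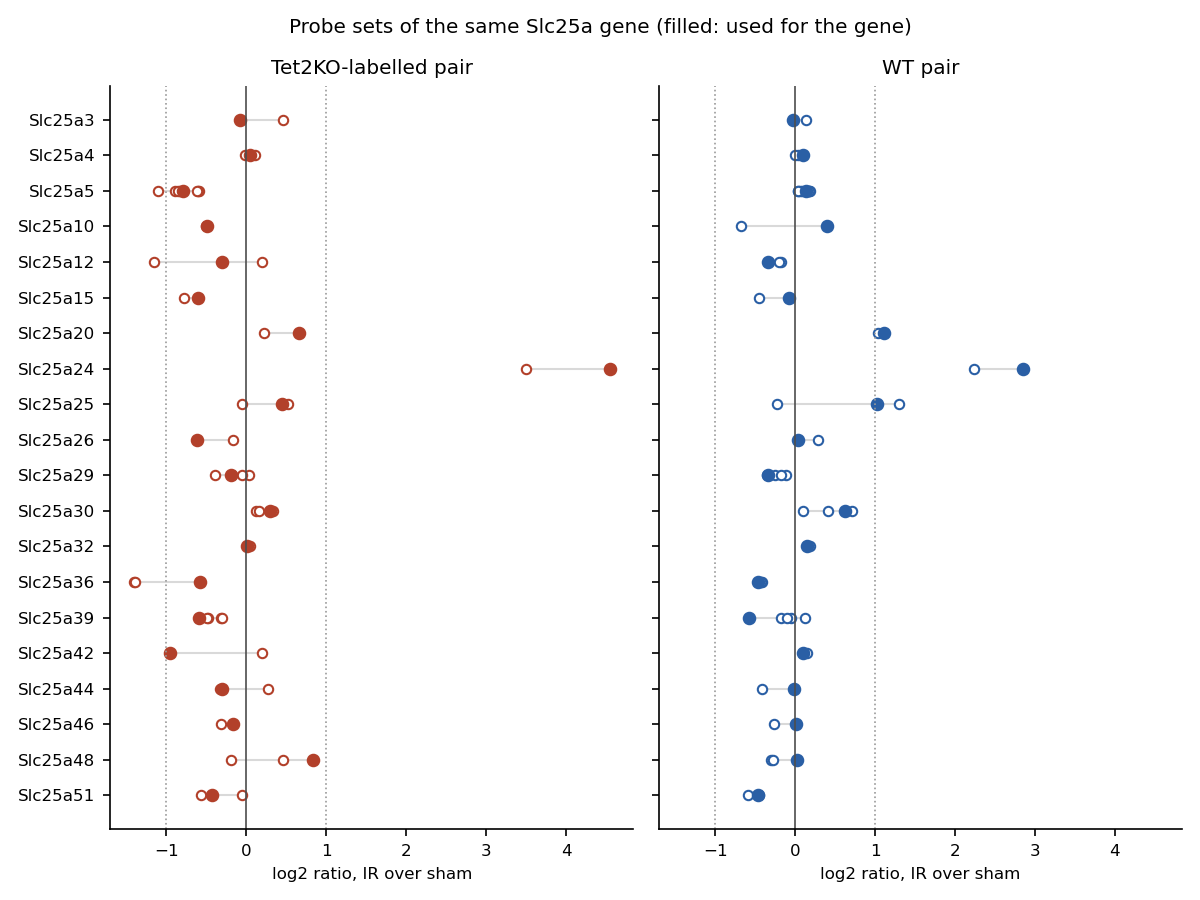
Log2 ratio of ischemia-reperfusion over sham for each measured probe set of the 20 carriers that have more than 1, in the knockout-labelled and the WT pair, with filled points for the probe set used for the gene, open points for the others and dotted lines at 2-fold. The 8 probe sets of Slc25a5, most of them _x_at sets, lie together below 0 in the knockout-labelled pair. Those of Slc25a12, Slc25a25 and Slc25a42 fall on both sides of 0 there.

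A list of 68 genes that work beside the carriers was read for comparison, and 60 of them were on the array under a single symbol. In the knockout-labelled pair, 3 of 58 measured were higher at 2-fold, where 6.06% of all genes were, and 4 were lower, where 6.89% were. The median log2 ratio was -0.02, beside -0.02 for all genes. In the WT pair, 3 of 59 were higher, where 2.06% of all genes were, and 1 was lower, where 2.18% were. The median there was -0.03, beside 0.02 for all genes. Apart from those given above, Sfxn2 and Sfxn5, sideroflexins of the inner membrane outside this family, were 2.61-fold and 2.42-fold lower in the knockout-labelled pair. Tomm40, the pore through which carriers enter the mitochondrion, was 2.20-fold higher in knockout-labelled than in WT ischemia-reperfusion kidneys, and the other 9 genes of the import machinery did not reach 2-fold in any comparison. Ucp1, the uncoupling protein of brown fat, was over the floor in WT sham kidneys alone, and the WT ischemia-reperfusion kidneys were at least 3.45-fold lower.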

How the data were processed

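Per the labels' protocols, Trizol was used to extract total RNA, which was labelled with biotin for Affymetrix 3' arrays. The submitters' processing notes name MAS5, a program giving 1 signal per probe set; its scaling and version are not given in the sources used here. The deposited values are log2 signals, as read from their range (2.51 to 14.97) and the column medians (6.28 to 6.33), and direction is not at issue because each column is 1 array.

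Probe sets were named from the array's annotation: 34945 had 1 symbol, 932 several and 9160 none. Each gene was read from the probe set with the highest mean log2 signal, an _x_at set (probes that can bind other transcripts) only where no other existed. Signals under the floor, the 40th percentile of all signals (linear 52.8), were set to it, and a ratio against the floor is a bound. The 5 comparisons are log2 ratios on this scale, described at 2-fold and 1.5-fold. With 1 array per group there is no test, and this limits the precision of every value. Levels of different genes were not compared. Scripts ran in Python 3.11.15 with numpy 2.4.6, pandas 2.3.3 and matplotlib 3.10.9 and were tested on simulated data.

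Entrez identifiers of all 44 carriers matched RefSeq GRCm38.p6, with 0 symbols changed. Every carrier is named. Those at 2-fold in any comparison have all 4 signals and their other probe sets given, and genes outside the family come from fixed lists. Partner genes are named at 2-fold, while cell type markers are given mainly as summed signals, which departs from the rule. Single tubule, neutrophil, macrophage and red cell markers were added after their values were seen, as were the counts of tubule and fat markers. Values of Slc25a3, Slc25a4, Slc25a5, Slc25a10, Slc25a12, Slc25a23, Slc25a36 and Slc25a39, and of Acly, Cpt1a, Got1, Got2, Mdh1 and Mdh2, were added after they were seen. The members and lists were chosen with earlier results of these data known. There were 7 alternatives: another floor, a pseudocount, the median over probe sets, plain _at sets only, quantile normalization, a stricter rule for measured genes and the sham array of the other genotype.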

Additional observations from a re-analysis of the deposited data

Results flagged for a closer look

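For 2 carriers the responses to ischemia-reperfusion ran in opposite directions in the genotypes, each by more than the SD between probe sets of the same gene. Slc25a1 had log2 ratios of 0.48 in the knockout-labelled and -0.35 in the WT pair, a difference of 0.83. Slc25a10 had -0.49 and 0.40, a difference of -0.89, and its second probe set did not show it. With 1 array per group these differences were not tested.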

How the results depend on the processing

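The median log2 ratios of the carriers moved by less than the SD between probe sets under all 32 alternatives computed. That SD was larger than the medians themselves, so this limit cannot show that a median is stable. In the WT pair the median of 0.02 became -0.02 with the median over probe sets. In the knockout-labelled pair the median of -0.19 became -0.27 with plain _at probe sets only. The counts of carriers at 2-fold were within 1.5 times of the reported count for 31 of 32 alternatives of higher and 29 of 32 of lower counts. The exceptions were counts of 5 or fewer. Knockout-labelled over WT after ischemia-reperfusion had 1 higher carrier with a pseudocount instead of a floor, where 2 are reported, and 5 lower with the median over probe sets and 5 with plain _at probe sets only, where 3 are reported. The difference of the responses had 2 lower carriers with the pseudocount, where 4 are reported. The pseudocount pulls every ratio toward 0 by its construction. For the 18 results of 10 named carriers, some alternatives could not change the value. All 10 were over the floor on every array and read by a plain _at set. The other floor, the stricter rule and plain _at sets only therefore repeated the reported values. The median over probe sets did so for the 5 carriers with 1 probe set. Of all 116 alternatives for these results, including those that could not differ, 0 reversed and 9 fell under 2-fold. With the pseudocount these were Slc25a1 between the ischemia-reperfusion arrays (0.96), Slc25a17 (-0.98) and Slc25a42 (-0.97) in the difference of responses, Slc25a25 in the WT pair (0.98) and Slc25a35 in the knockout-labelled pair (-0.99). With quantile normalization they were Slc25a17 in the difference (-0.99) and Slc25a25 in the WT pair (0.95). With the other genotype's sham array it was Slc25a20 in the WT pair (0.94), and with the median over probe sets Slc25a42 in the difference (-0.50). No paired analysis was possible because each group has 1 array. Carriers near the floor have less certain ratios.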

Other observations

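Regulators of mitochondrial genes did not reach 2-fold in any comparison, for any of the 7 listed. Ppargc1a, a coactivator that drives mitochondrial genes, had log2 signals of 9.98 in knockout-labelled ischemia-reperfusion and 10.65 in knockout-labelled sham kidneys, against 10.84 and 11.16 in the matching WT kidneys. Esrra and Gabpa, factors that bind mitochondrial gene promoters, had log2 ratios of -0.62 and -0.69 in the knockout-labelled pair and of -0.16 and -0.24 in the WT pair. Ppara and Nrf1 went the other way, with 0.20 and 0.16 in the knockout-labelled pair and 0.71 and 0.32 in the WT pair. Ppargc1b and Tfam had -0.23 and -0.34, and 0.12 and -0.02, in these pairs. Mcu, the pore of mitochondrial calcium uptake, had 0.49 in the knockout-labelled and 0.35 in the WT pair. The 6 measured genes of calcium uptake had medians of -0.05 and -0.14, with Letm1 at -0.62 and Micu2 at -0.44 in the knockout-labelled pair. Mpc1, a subunit of the mitochondrial pyruvate carrier, had log2 signals of 12.13 and 13.12 in knockout-labelled ischemia-reperfusion and sham kidneys, against 12.76 and 12.94 in the matching WT kidneys. These genes were chosen after their values were seen.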
